A study of Mus musculus with 2 samples.

Results

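The cytosolic ribosomal proteins were followed in regenerating mouse liver, as the genes whose name begins with Rpl or Rps and a number, with an optional suffix letter, together with Rplp0, Rplp1, Rplp2 and Rpsa. Of the 34745 genes listed, 84 met this rule, 33 of the small and 51 of the large ribosomal subunit, and names that mark a pseudogene were not taken. The study asked what loss of miR-182-5p changes in the liver after partial hepatectomy (PH), the removal of 70% of the organ, which sets the remaining liver cells to divide. It compared 1 liver RNA library from miR-182-5p KO mice with 1 from WT mice, all male, 8 to 10 weeks old and operated in the same way. The study describes the KO mice as heterozygous, so that 1 allele of the miRNA remained, and the livers were taken on day 3 after PH. How many mice went into each library is not given in the sources used here, the deletion was not limited to one cell type, and the libraries hold every cell of the liver piece. With 1 library in each group no difference below has a replicate check, and every test and interval compares these 2 libraries and covers counting error only.

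A ribosome is built from 2 subunits, each of ribosomal RNA and one copy of most of its proteins. A cell that is about to divide has to make many new ribosomes, and the mRNAs of ribosomal proteins are among the most abundant in it. Their translation is under the control of mTORC1 through a pyrimidine tract at the very start of the mRNA (the 5′ terminal oligopyrimidine motif, TOP), while the amount of the mRNA, which was measured here, is set by transcription and decay. miR-182-5p is a miRNA of the Mir182 gene, on GRCm38.p6 at chr6:30165962-30165986 on the minus strand, and its mature sequence from RefSeq is shown with the seed, bases 2 to 8, in capitals because pairing with this stretch selects its target mRNAs.
miR-182-5p: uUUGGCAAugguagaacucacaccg

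The KO library held 13247497 counts and the WT library 13163348. Mitochondrially encoded transcripts made up 51.7% of the KO library and 31.0% of the WT library, and levels were compared after TMM scaling, which sets the middle of the gene distribution equal (factors 0.812 and 1.23). With a minimum of 10 counts summed over KO and WT, 13561 genes were tested, of which 8.32% were lower and 7.97% were higher in KO by at least 2-fold at an adjusted p under 0.05 (exact binomial test, Benjamini-Hochberg adjustment), and at any fold 24.1% were lower and 23.6% higher. The 6 hepatocyte markers summed to 51426 CPM (counts over the scaled library size, times 1000000) in KO and 50787 in WT, with 3 markers higher and 3 lower at the adjusted p. Of the 7 cell cycle genes 6 were lower (median log2 fold change −0.90, summed level 181 against 309 CPM), and lower counts were also found for 3 of 6 stellate, 3 of 5 endothelial and 4 of 5 macrophage markers. Cholangiocyte markers were higher for 3 of 5, neutrophil markers passed for 0 of 3, erythroid markers were lower for 3 and higher for 1 of 5, and 1 of 3 testable lymphocyte markers was higher, with Cd3e and Cd3d at 0 in KO and Ly6g at 0 in both libraries. What part the cell cycle genes, the other cell types or the mitochondrial share had in the differences below was not tested, and fewer cells of a type and less RNA per cell cannot be told apart in whole liver.

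The ribosomal protein genes together were lower in the KO library. They received 69238 counts in KO and 134981 in WT, which is 0.523% and 1.03% of all counts. Outside the mitochondrial genome their share was 1.08% in KO (95% exact binomial interval 1.07 to 1.09) and 1.49% in WT (1.48 to 1.49). The small subunit went from 0.693% in WT to 0.489% in KO and the large subunit from 0.793% to 0.592%. Both subunits were thus lower, and the ratio of small to large subunit counts, into which no scaling enters, was 0.826 in KO and 0.873 in WT (ratio of the 2 ratios 0.945, 95% interval 0.928 to 0.963).

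Of the 84 genes, 81 passed the minimum of 10 counts. The other three, Rpl3l, Rpl10l and Rpl39l, are like paralogs known from muscle and testis, and had 0 counts in both libraries, which allows up to 0.279 CPM in KO and 0.185 in WT at a floor of 3 counts. The median log2 fold change of the 81 genes, KO over WT, was −0.27 (quartiles −0.54 and −0.04), against 0.00 for all genes tested. A value below 0 was found for 63 of the 81 genes, where 50% of all genes tested were below 0. By the adjusted p at any fold 50 were lower and 6 were higher, against 24.1% and 23.6% of all genes tested, and 25 did not pass. With the 2-fold limit 4 were lower (Rpl9, Rps29, Rpl3 and Rps4x) and 1 was higher (Rpl23a), where 8.32% and 7.97% of all genes tested were. The shift was thus shallow and wide, and few of these genes reached 2-fold. The shares over all genes depend on depth, and 61 of the 81 genes had 500 or more counts over both libraries. Of the 1889 tested genes with 1000 to 10000 counts, 76 were lower and 53 higher at 2-fold. At any fold 788 of these were lower and 614 higher.

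**Figure D1:**
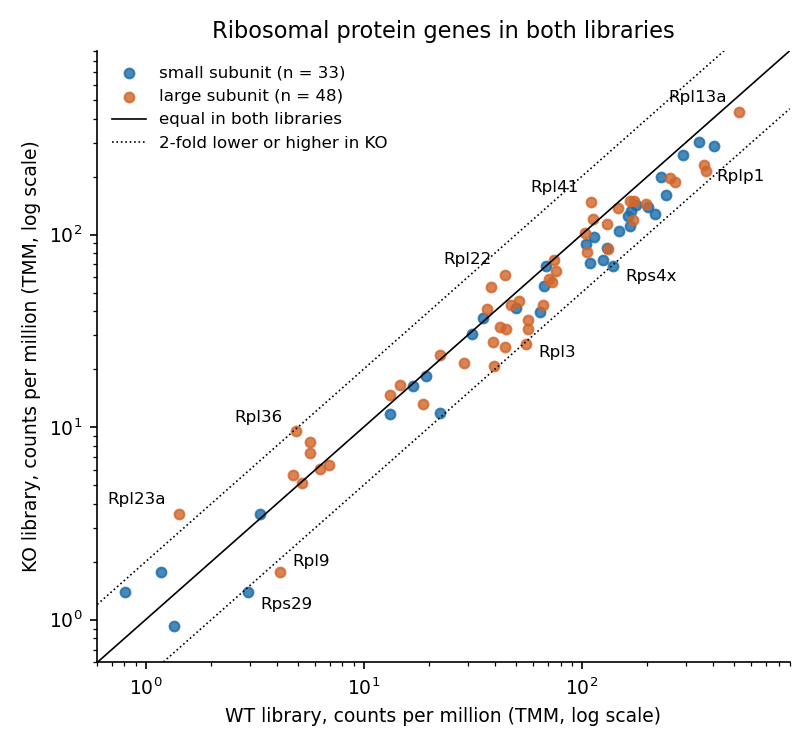
Level of each of the 81 ribosomal protein genes in the WT library (x axis) and the KO library (y axis), in CPM after TMM scaling on log axes, with 1 point per gene, coloured by subunit. The solid line marks equal levels and the dotted lines a 2-fold difference, and 63 points lie below the solid line.

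Levels between genes were compared per kilobase of the longest coding mRNA in GENCODE M21, since the deposited FPKM divide by gene models that for 49 members were more than 2 times as long as that mRNA. On this scale (CPM after TMM, divided by the length in kilobases) the WT library had a median of 72.4 over the tested genes and the KO library 56.8. Rplp1, an acidic protein of the stalk that recruits elongation factors, was the highest in WT at 728, and stood at 461 in KO. It was followed in WT by Rps15 with 605 and Rpl13a with 505, for which the KO library had 529 and 412. These 3 genes led in both libraries, but in KO Rps15 came before Rplp1. Rpl8, a core protein of the large subunit, fell from 264 in WT to 183 in KO. The libraries kept much of the order of the genes (Pearson r = 0.98 of log10 counts across the 81 genes, which share the 2 libraries and are not independent replicates). Rps13, a small subunit protein, was the lowest of the tested coding members in WT at 1.03, and stood at 0.706 in KO. These levels rest on 22 counts in WT and 10 in KO, and the difference did not pass. All levels here use only reads assigned to the gene itself, while many members share sequence with other genes, as described below.

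Rpl3 (GRCm38 chr15:80077794-80091868, minus strand), whose protein reaches towards the peptidyl transferase centre, had 290 counts in KO and 901 in WT. Scaled, this was 27.0 and 55.6 CPM, a log2 fold change of −1.04 (95% counting interval −1.24 to −0.85). Rps4x (chrX:102184941-102189394, minus strand), the X-linked form of a small subunit protein, had 735 and 2263 counts and a log2 fold change of −1.03 (−1.15 to −0.91). Of the 51-base words of the longest coding mRNA, 85.5% for Rpl3 and 71.5% for Rps4x also occur in other genes. Both values can therefore depend on how reads were assigned. No other gene of the 81 with 100 or more counts in all was past 2-fold. Rpl9 (chr5:65388364-65391444, minus strand) had 19 counts in KO and 67 in WT, and Rps29 (chr12:69157722-69159186, minus strand) had 15 and 48. Their log2 fold changes of −1.21 (−2.04 to −0.47) and −1.07 (−2.03 to −0.22) rest on few reads, and both intervals reach well inside 2-fold.

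Next in order among genes with at least 100 counts came Rpl7a, with 223 counts in KO and 645 in WT and a log2 fold change of −0.94. Rps7 had 127 and 362 counts (−0.92) and Rpl19, at the rim of the exit tunnel, had 346 and 921 (−0.82). Rpl4, which lines that tunnel, was the most precisely measured of the strongly lower genes, with 2300 counts in KO and 6048 in WT. Its log2 fold change was −0.80 (−0.87 to −0.73), and its share of all ribosomal protein counts went from 4.48% in WT to 3.32% in KO. Rpl39, a very small tunnel protein, had 281 and 723 counts (−0.77), and Rps9, at the mRNA entry channel, had 791 and 2021 (−0.76). All of these passed the adjusted p at any fold, and none of their intervals reached 0.

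A smaller set was higher in KO. Rpl36 had 103 counts in KO and 79 in WT, a log2 fold change of 0.97 (0.54 to 1.42), just under the 2-fold limit. Rpl28, which has no counterpart in yeast, had 90 and 92 counts (0.56) and Rpl22, an RNA-binding protein of the large subunit, had 664 and 718 (0.48, interval 0.33 to 0.63). Rpl10, an X-linked protein that joins the large subunit late, had 571 and 620 counts (0.47), and Rpl41, the shortest ribosomal protein, had 1582 and 1797 (0.41). These 5 and Rpl23a were the 6 genes higher at the adjusted p. Scaled by total counts, only Rpl36, Rpl23a and Rps27 stayed above 0, and the direction of Rpl28, Rpl22, Rpl10 and Rpl41 turned. Rpl17, Rpl27 and Rpl12 completed the 8 highest genes with at least 100 counts, at 0.37, 0.25 and 0.17, and none of them passed. Rpl23a (chr11:78180932-78183584, minus strand), at the tunnel rim where the signal recognition particle docks, had 38 counts in KO and 23 in WT (1.29, interval 0.53 to 2.13). Rps27 had 15 and 13 (0.77, −0.37 to 1.99) and Rps23, at the decoding site, had 19 and 19 (0.58, −0.40 to 1.59), and neither passed.

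**Figure D2:**
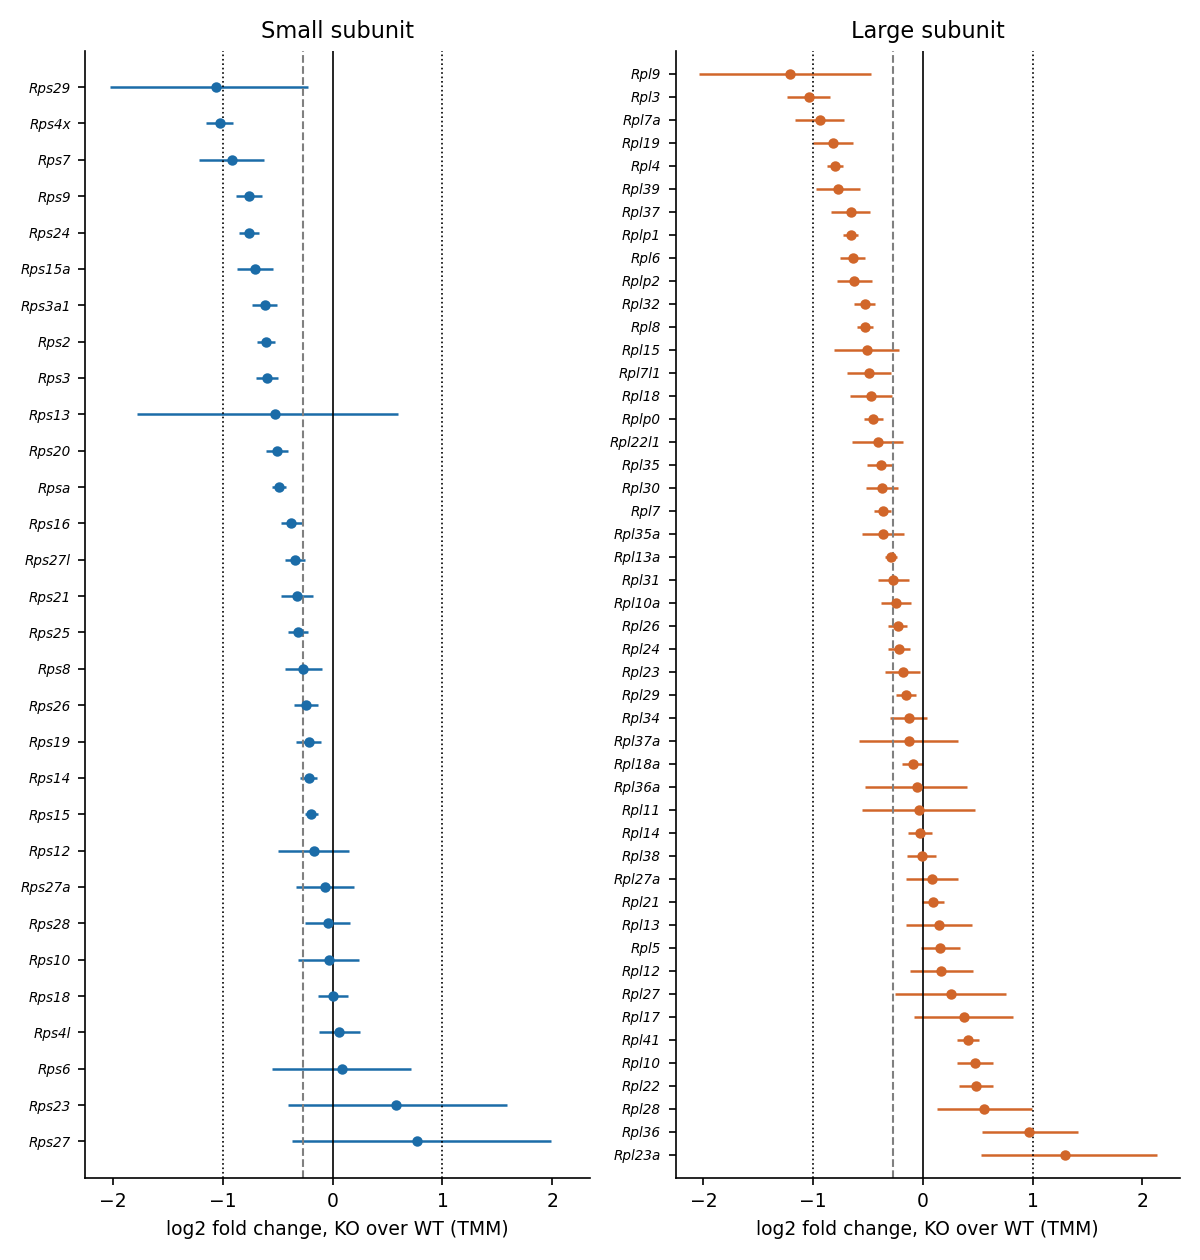
Log2 fold change of each tested ribosomal protein gene, KO over WT after TMM scaling, with its 95% counting interval, for 30 of the 33 small subunit genes (left) and the 48 large subunit genes (right). The dashed line marks the median of the 81 genes, −0.27, and the dotted lines mark 2-fold. Over all 81 genes, 51 intervals do not include that median.

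The differences of the genes were spread more widely than counting error between these 2 libraries. What part differences between mice or sequence shared with other genes had in this spread was not tested. The 95% counting interval left out the median of the group for 51 of 81 genes, 29 of which lay below it and 22 above. The intervals reached a median of 0.15 to either side on the log2 scale, while the standard deviation of the log2 fold changes over the 81 genes was 0.46. Genes with a summed count of 500 or more had a median of −0.36, with 53 of 61 below 0, and the 20 genes with fewer counts had a median of 0.02, with 10 below 0. The genes with many reads were thus mostly lower, and those with few were not.

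Many of the members share sequence with other genes, and this bears on their counts. Ribosomal protein genes have many processed pseudogenes and intron-free copies, and a read that lies in both can be given to either. Of all 51-base words in the longest coding mRNA, the median member shared 47.0% with another annotated gene, and 37 of 83 members shared at least 50%. Rps3 shared 2.80% and Rpl22 5.00%. Among the genes described above, Rpl3 shared 85.5%, Rpl10 85.3%, Rpl7a 81.0%, Rpl36 80.5% and Rpl19 79.2%. Their counting intervals do not cover the assignment of such reads. The 14 tested genes that shared under 20% had a median log2 fold change of −0.57, with 13 below 0. At the adjusted p 12 were lower and only Rpl22 higher, where 24.1% and 23.6% of all genes were. The share is taken over the longest mRNA, so a long annotated form lowers it. Rpl9, at 16.5% of a 2690-base mRNA, is among the 14, although its copy Rpl9-ps6 had 669 WT counts against its own 67. For the 29 genes that shared 20% to 50% the median was −0.22, and for the 37 that shared at least 50% it was −0.27.

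For 29 members, 40 listed copies were found that did not lie next to the gene, shared at least 10% of its words and had at least 25% of their own words in it, and 11 of these members had fewer WT counts than their copies. Rpl23a was such a gene: its copy Rpl23a-ps3 had 600 counts in KO and 1505 in WT. Summed, Rpl23a had 638 and 1528 counts, and its log2 fold change went from 1.29 to −0.67 (interval −0.80 to −0.53). The one gene called higher at 2-fold was thus lower when its copy was included. Rps27 went from 0.77 to −0.57 when Rps27rt, with 397 and 912 counts, was added. Rpl12 moved from 0.17 to −0.40 with Gm10275, which had 2699 counts in KO and 5502 in WT, far more than Rpl12 itself with 178 and 239.

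Rpl5, which with Rpl11 carries the smallest large-subunit ribosomal RNA and can bind Mdm2, had 442 counts in KO and 597 in WT and a log2 fold change of 0.16 (−0.02 to 0.34). With Gm15500 it had 1537 and 3692 counts, and the log2 fold change was −0.67. Rpl11 had 55 and 85 counts (−0.04), and with Gm10036 and Gm5093 768 and 1360 (−0.23). Rpl9 moved the other way, from −1.21 to −0.84 with Rpl9-ps6, and Rps7 from −0.92 to −0.56 with Gm6472 and Gm9493. Including the copies, the median of the 81 genes was −0.36, 69 were below 0, and 57 were lower and 5 higher at the adjusted p. On their own counts 50% of all genes tested were below 0, and 24.1% were lower and 23.6% higher. At 2-fold 3 were lower (Rpl3, Rps29 and Rps4x) and 0 were higher, where the background in these summed counts was 8.32% and 7.98%. No copies were added for these 3 genes, so their values are those of the gene alone. Which gene the reads came from could not be told from the counts. The sums, formed after the values had been seen, do not depend on how reads were divided between a gene and its added copies. Copies that are not listed or fall below the limits were not added, and members without added copies kept their own counts. For these, the assignment of reads can still matter.

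**Figure D3:**
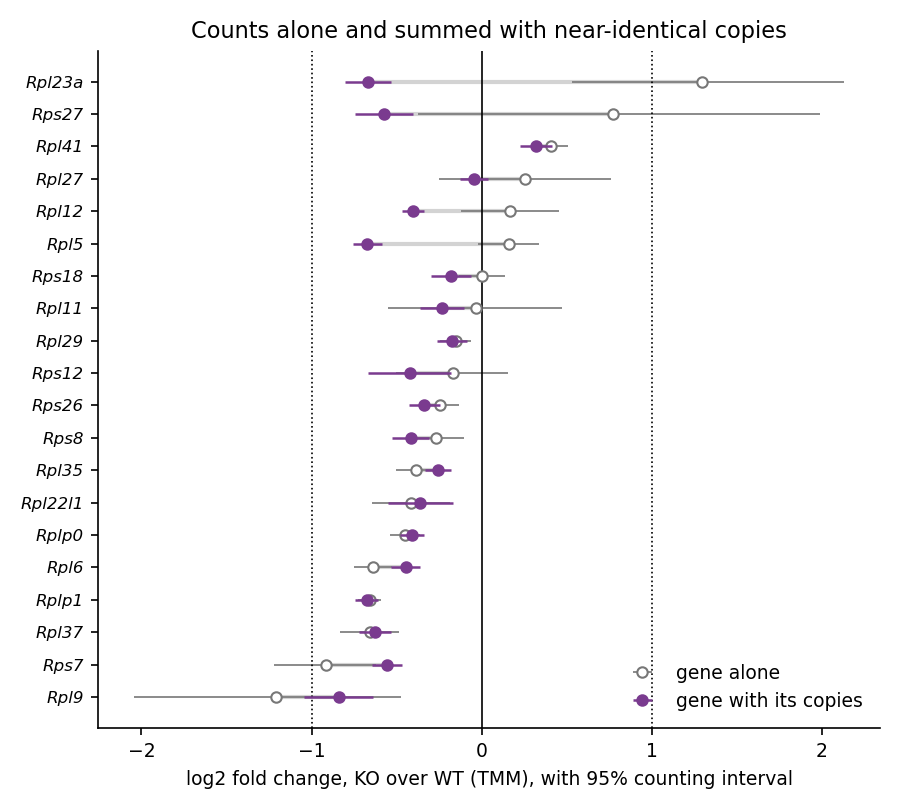
Log2 fold change, KO over WT after TMM scaling, of the 20 ribosomal protein genes whose copies had at least 50 counts in WT, for the gene alone (open circles) and summed with its copies (filled circles), each with its 95% counting interval. The values spread from −1.21 to 1.29 alone and from −0.84 to 0.32 summed, and 19 of the 20 sums lie below 0.

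The members were also read by place and role in the ribosome, in groups drawn up after their values had been seen. The 3 stalk proteins were all lower. Rplp0, the base of the stalk and a common reference gene in quantitative PCR, had 1547 counts in KO and 3191 in WT (−0.45, interval −0.54 to −0.36). Rplp1 had 2476 and 5889 (−0.66) and Rplp2 had 463 and 1076 (−0.62). The 3 proteins of the mRNA entry channel were lower by similar amounts, with Rps2 at 1717 and 3944 counts (−0.61), Rps3 at 1185 and 2705 (−0.60) and Rps9 at −0.76. Rpsa, the laminin receptor protein of the small subunit, had 3102 counts in KO and 6570 in WT, the second largest WT count after Rpl13a, and a log2 fold change of −0.49 (−0.55 to −0.43). At the exit tunnel rim 5 of 7 genes were lower at the adjusted p and 1, Rpl23a, was higher, where 24.1% and 23.6% of all genes were. With its copy Rpl23a was at −0.67. Diamond-Blackfan anaemia is a failure of red cell production from lack of one ribosomal protein. Of 9 genes known for mutations in it, 6 were lower, among them Rps7, Rps24 and Rps19. The other 3, among them Rpl5 and Rpl11, did not pass on their own counts. With their copies Rpl5 and Rpl11 were at −0.67 and −0.23. Of the 4 X-linked genes Rps4x and Rpl39 were lower, Rpl10 was higher and Rpl36a, at 65 and 102 counts, did not pass.

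By subunit, 23 of 33 small subunit genes were lower and 0 were higher at the adjusted p, where 24.1% and 23.6% of all genes were. Their median log2 fold change was −0.33. Of 48 large subunit genes 27 were lower and 6 higher, with a median of −0.24. Rps6, the protein whose phosphorylation by S6 kinase is a common readout of mTORC1, had only 38 counts in KO and 54 in WT, a log2 fold change of 0.08 (−0.55 to 0.71). A difference of Rps6 mRNA was not detectable at this depth, and 84.5% of its words occur in other genes.

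Some members have a paralog encoded elsewhere that can take their place. Rpl22 is known to hold down its paralog Rpl22l1, and after TMM scaling the 2 went opposite ways, while with total counts both were below 0 (−0.12 and −1.01). Rpl22l1 had 232 counts in KO and 466 in WT (−0.41, interval −0.65 to −0.18). The ratio of Rpl22 to Rpl22l1 counts was 2.86 in KO and 1.54 in WT, 1.86 times higher in KO (95% interval 1.53 to 2.26), and 1.79 times higher when the copy of Rpl22l1 was included. This ratio needs no scaling of the libraries. Rpl7 to Rpl7l1 was 7.09 and 6.52 (1.09 times, 0.937 to 1.27), an interval that includes 1. Rps27l, a p53 target that differs from Rps27 by a few residues, had 1431 counts in KO and 2737 in WT (−0.34), and the ratio of Rps27 to Rps27l was 0.0105 in KO and 0.00475 in WT (2.21 times, 0.976 to 5.05). With the copy of Rps27 included the ratio was 0.288 and 0.338 (0.852 times, 0.744 to 0.974), in the opposite direction. Rps4l, annotated in GENCODE M21 as a transcribed processed pseudogene, had 396 and 572 counts (0.06). The ratio of Rps4x to Rps4l thus went from 3.96 in WT to 1.86 in KO (0.469 times, 0.402 to 0.548). Of the words of Rps4x 71.5% occur in other genes, so this ratio can depend on how such reads were assigned.

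A few ribosomal proteins have names outside the rule. Gnb2l1, now called Rack1, a scaffold on the small subunit, had 2008 counts in KO and 4523 in WT and a log2 fold change of −0.58, and shared 0.859% of its words with other genes. Fau, which makes a ribosomal protein fused to a ubiquitin-like protein, had 927 and 1532 counts (−0.13) and did not pass. Rpl36al did not pass either, with 993 and 1535 counts (−0.04). Of the 4 genes of this list 1 was lower and 0 were higher, where 24.1% and 23.6% of all genes were, with a median of −0.08.

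The elongation factors and other mRNAs known or listed with the TOP class leaned the same way. Of 10 genes, 10 were below 0 and 6 were lower at the adjusted p, where 50% and 24.1% of all genes were, with a median of −0.33. Eef1a1, which brings aminoacyl-tRNA to the ribosome, had 14068 counts in KO and 26165 in WT (−0.30), and Eef2, the translocase, had 4335 and 8886 (−0.44). Eef1b2, the exchange factor of Eef1a1, was past 2-fold with 673 and 2122 counts (−1.06). Of 29 initiation factors 14 were lower and 4 higher, where 24.1% and 23.6% of all genes were, with a median of −0.16. Eif2s1, Eif6, Eif4a1 and Eif5a were between −0.90 and −0.69, and Eif5b, which joins the subunits, was higher with 2692 and 2766 counts (0.55), which with total counts turned to −0.05.

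On the mTORC1 axis, which the study examined through phosphorylated S6 and 4EBP1, 3 of 17 mRNAs were lower and 5 higher, near the 24.1% and 23.6% of all genes tested, with a median of −0.02. Mtor itself had 355 counts in KO and 571 in WT (−0.09) and did not pass. Rps6kb1, an S6 kinase, had 291 and 302 counts (0.54), and Larp1, which binds the TOP motif and represses these mRNAs, had 1522 and 1945 (0.24). Both of these were higher at the adjusted p, as were Rps6kb2 (0.92), Tsc2 (0.33) and the mTOR inhibitor Deptor (0.89). With total counts Rps6kb1, Larp1 and Tsc2 turned below 0 (−0.06, −0.36 and −0.27), and Rps6kb2 and Deptor stayed above it (0.32 and 0.29). Eif4ebp1, a repressor of the cap-binding protein, had 196 and 349 counts (−0.24) and did not pass. Akt1s1, another inhibitory partner of mTORC1, was the one gene past 2-fold, with 57 counts in KO and 241 in WT (−1.48).

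Of 7 transcription factors known at ribosomal protein promoters 2 were lower and 1 higher, at a background of 24.1% and 23.6%. Myc, which drives ribosome production in growing cells, had 37 counts in KO and 103 in WT (−0.88). Gabpa, the ETS subunit of GABP, had 56 and 150 (−0.82), while its partner Gabpb1 was past 2-fold in the other direction with 106 and 33 (2.26). Among 7 chaperones and assembly factors of single ribosomal proteins 1, Pdcd2, was lower and 0 were higher (median 0.07). Of 6 snoRNA host genes, which carry guide RNAs for ribosomal RNA in their introns, 2 were lower and 1 higher (median −0.13), again near the background.

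The shift of the cytosolic ribosomal proteins was close in size to that of other protein complexes in these libraries. The 77 tested genes of the mitochondrial ribosome had a median log2 fold change of −0.31, with 37 lower and 9 higher at the adjusted p. The 38 tested proteasome subunits had a median of −0.29, with 26 lower and 2 higher. Of all genes tested 24.1% were lower and 23.6% higher. Short mRNAs as a whole, the members included, leaned the same way. The 658 tested coding genes with an mRNA under 1000 bases had a median of −0.16. For the 4223 with at least 4000 bases it was 0.07, and the median mRNA of the members is 937 bases long. Over all 12544 tested coding genes the log2 fold change rose with mRNA length (Spearman rho 0.11), and over the 80 members with a coding mRNA it fell (rho −0.25), both given as descriptions across genes of the same 2 libraries.

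**Figure D4:**
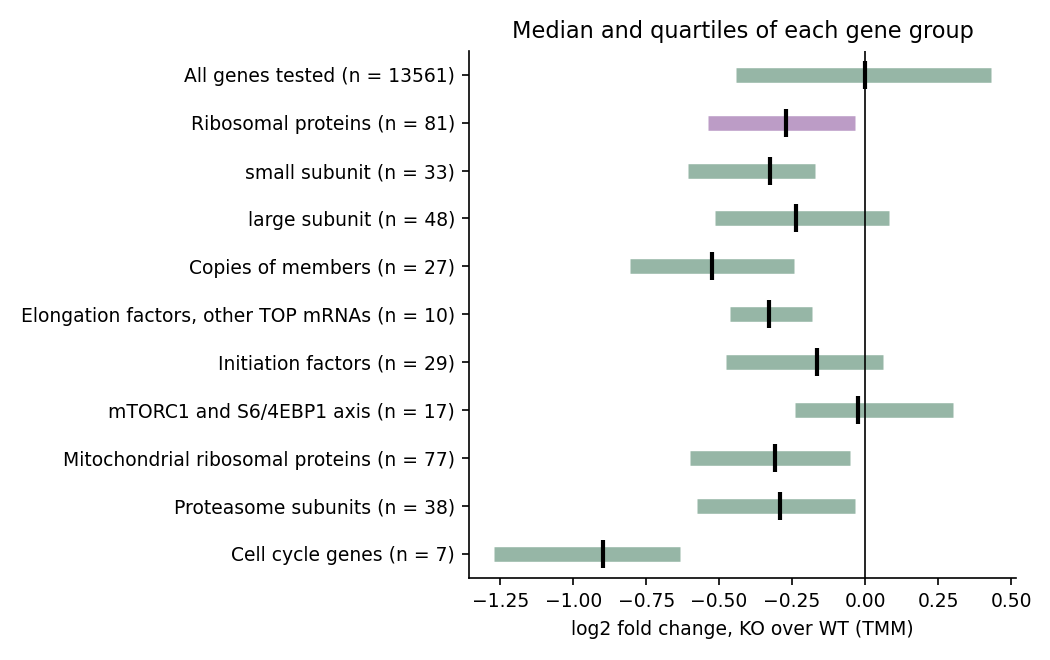
Log2 fold change, KO over WT after TMM scaling, for each gene group, with the median as a black tick and a bar between the lower and upper quartile. The median is −0.27 for the ribosomal proteins, −0.31 for the mitochondrial ribosomal proteins, −0.29 for the proteasome, −0.90 for the cell cycle genes and 0.00 for all genes tested.

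The start of the mRNA was read from the RefSeq promoter set (GRCm38.p6), which matched 63 of the 84 genes. A run of at least 9 pyrimidines within 15 bases on either side of the annotated start was present in 26 of the 63 members and in 9.07% of the 27025 genes of the set. In 16 of the 63 members, and 3.54% of all genes, the run covered the start base itself, as a TOP motif would. Such a run is shown in capitals for 5 members described above, because a TOP mRNA is regulated through pyrimidines at its first bases, and Rps4x is shown as one without it, with its longest run of 4 in capitals. Each window holds the 15 bases before the annotated start and the 15 bases from it on.
Rps6, chr4:86857353-86857382, minus strand: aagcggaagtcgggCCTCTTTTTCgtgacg
Rplp2, chr7:141447636-141447665, plus strand: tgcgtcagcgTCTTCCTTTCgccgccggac
Rpl7a, chr2:26910792-26910821, plus strand: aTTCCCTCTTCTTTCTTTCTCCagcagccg
Rps9, chr7:3704026-3704055, plus strand: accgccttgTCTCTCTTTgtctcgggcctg
Rpl28, chr7:4792950-4792979, plus strand: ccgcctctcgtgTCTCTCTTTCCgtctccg
Rps4x, chrX:102189377-102189406, minus strand: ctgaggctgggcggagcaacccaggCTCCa

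The annotated start is not always the base at which transcription begins, so a missing run says only that these letters are not in this window. Members with the run had a median log2 fold change of −0.32 (26 genes, −0.94 to 0.77) and those without it −0.24 (34 tested genes, −1.21 to 0.58), and the 2 ranges overlapped. The order of the medians turned for a run that covered the start base, with −0.08 for the 16 members that had one and −0.30 for the 44 tested members that did not. Rpl7a and Rpl28 both carry the run and were at −0.94 and 0.56. In the whole 300 bases of the promoters the ETS motif CCGGAAG, searched on both strands, was present in 26 of 63 members and 9.93% of all genes. TCGCGA, searched likewise, was present in 14 of 63 and 2.86%. TATAAA was present in 7 of 63 and 15.7%, and AAGATGGC, a YY1 motif, in 6 of 63 and 3.19%. CACGTG, the E-box bound by Myc among others, was present in 6 of 63 and 8.09%. The median log2 fold change with and without a motif was −0.33 and −0.22 for CCGGAAG, −0.22 and −0.32 for TCGCGA, −0.41 and −0.27 for TATAAA, −0.33 and −0.26 for AAGATGGC and −0.20 and −0.32 for CACGTG, so that carriers were lower for some motifs and higher for others.

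Matches to the miR-182-5p seed were few in these mRNAs. TTGCCAA, the complement of seed bases 2 to 8, occurred in the 3′ UTR of 3 of 80 tested members and in 11.9% of 12503 tested coding genes. The members' 3′ UTRs are short, with a median of 109 bases against 1098 for all. Among genes with a 3′ UTR no longer than the members' median the share was 0.743%. The 3 members with a match have longer ones, of 578 (Rpl31), 3167 (Rps20) and 4728 bases (Rps15a). Among genes with a 3′ UTR of up to 4728 bases the share was 10.3%. The 3 matches are printed in capitals with the bases around them, since they are where the seed could pair.
Rps15a, bases 252 to 258 of its 3′ UTR: gtctggtttatTTGCCAAtgagaagcaca
Rps20, bases 3033 to 3039 of its 3′ UTR: aaagccatttgTTGCCAAtcctaacagcc
Rpl31, bases 469 to 475 of its 3′ UTR: tccagccatctTTGCCAAccagtagctca
All 3 mRNAs were lower in KO, Rps15a with 426 counts against 1049 in WT (−0.71), Rps20 with 1117 against 2394 (−0.51) and Rpl31 with 631 against 1148 (−0.27). The transcripts that hold these matches are the longest annotated ones, and the counts do not show which end of the mRNA was present.

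How low the ribosomal protein genes stood depended on the scale. With total counts, which include the mitochondrial genome, their median log2 fold change was −0.87, 30 were lower at 2-fold and 0 higher (background 25% and 3.47%), and 78 of 81 were below 0. The median of all genes then stood at −0.60. A change of scaling moves every gene by nearly the same amount. The distance between the medians, −0.27 on either scale, is therefore no check on the shift. If a biological coefficient of variation of 0.2 was assumed, which the data cannot give, edgeR's exact test called 0 members lower at 2-fold and 3.27% of all genes.

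**Figure D5:**
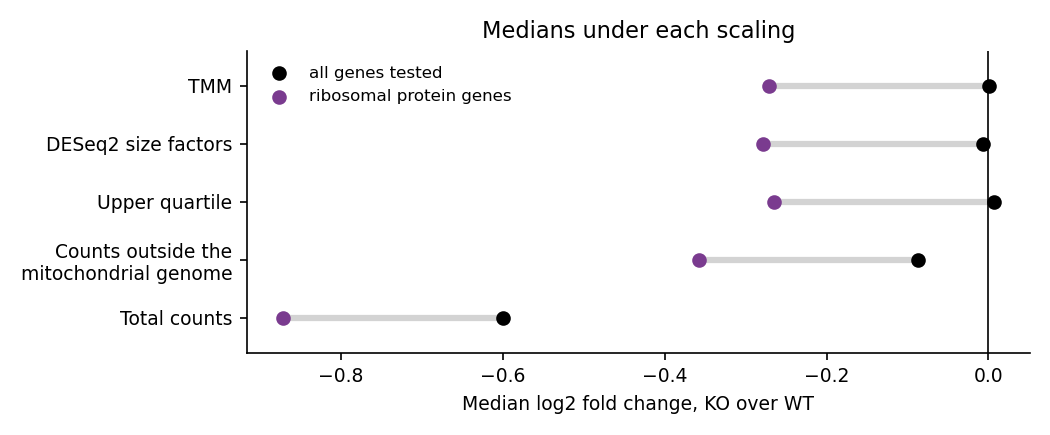
Median log2 fold change, KO over WT, of the 81 ribosomal protein genes and of all genes tested, under each of 5 scalings of the 2 libraries. The median of the ribosomal proteins runs from −0.26 to −0.87. Its distance of 0.27 below that of all genes is the same in each because a scaling moves all genes together.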

How the data were processed

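RNA of 1 KO and 1 WT liver library was sequenced by the study after poly(A) selection. The deposited table holds gene counts, not normalized, and FPKM values that the authors computed from them. The submitters' processing notes name HISAT2 2.0.4, StringTie and edgeR and the build hg38, while the identifiers and coordinates in the file are mouse (GRCm38). Total counts were 13247497 (KO) and 13163348 (WT).

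Counts were scaled by TMM (edgeR 4.0.16). Log2 fold changes used a prior count of 0.5. Genes with 10 or more counts in all were tested for a KO share other than the scaled one (exact binomial, two-sided), p-values were adjusted over every tested gene (Benjamini-Hochberg), and intervals are exact (Clopper-Pearson) at 95%. The code was tested on simulated data. Copies were found as shared 51-base words of GENCODE M21 transcripts, leaving out genes within 10000 bases of the member. Promoter windows and the miRNA are from RefSeq. Python 3.11.15, scipy 1.17.1 and, as an alternative scaling, DESeq2 1.42.0 were used.

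The genes named are the 8 highest and 8 lowest members with at least 100 counts, the 5 with the highest FPKM in WT, like paralogs with their parents, a fixed set with known roles, every member past the 2-fold call and members with 3 or fewer counts. Rps13, Rps23, Rps27 and the genes named for their copies, groups or motifs were chosen after their values were seen. The members and lists were chosen with earlier results of these data known. A few genes that the rule names are not reported here. Whether reads were assigned by strand is not given in the sources used here.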

Additional observations from a re-analysis of the deposited data

How the results depend on the processing

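No paired analysis was possible because KO and WT each have a single library, so none could be left out either. Total counts gave 30 members lower and 0 higher at 2-fold in place of 4 and 1, and medians of −0.87 for the members and −0.60 for all genes. FPKM with a pseudocount of 0.1, with no test, gave 29 and 0, and a median of −0.86. Assumed coefficients of variation of 0.2 and 0.4 left 0 and 0. Rpl23a was no longer higher when -ps copies or copies found by sequence were added (0 higher). The alternatives by sequence, by shared words and by 500 counts were chosen after seeing the data: members with under 20% shared words gave 1 lower and 0 higher and a median of −0.57, also −0.57 from that of all genes, and members with at least 500 counts gave 2 and 0. DESeq2 size factors, the upper quartile, counts outside the mitochondrial genome, other count minimums, a prior of 5 and leaving out like paralogs gave between 3 and 6 members lower and 1 higher. The median of the members lay 0.27 below that of all genes under each scaling, a distance that scaling cannot change because it moves all genes together. Reads shared with copies, and under 100 counts over KO and WT for 7 of the 81 tested members, limit the values of single genes, and the spread between mice is unknown.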
